A study of Mus musculus with 3 samples.

Results

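Chromatin accessibility was examined around 8 genes that hold Wnt signalling in check, namely Sfrp1, Sfrp2, Wif1, Dkk1, Dkk2, Dkk3, Sostdc1 and Kremen1. The genes were taken by name, with no measured value in the rule, although earlier results of these data were known when they were chosen. They are 8 of the 21851 nuclear protein-coding genes of the annotation. Around each gene, peaks were read from 20 kb before the start site to 20 kb after the gene end. These windows held 25 of the 47562 accessible regions found in the series. The label of secreted inhibitors does not hold for Kremen1, which encodes a receptor in the cell membrane.

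The data were Omni-ATAC-seq peak lists, made by cutting open DNA with the Tn5 transposase, from sorted hair follicle stem cells (HFSCs) of dorsal mouse skin. All mice were 6 months old, and their follicles were in telogen, when hair growth rests. HFSCs were sorted as cells with CD34 and CD49f and without Sca-1 on their surface. There was 1 library from wild-type mice (Msx2-WT, written WT from here) and there were 2 from Msx2 knockout mice (Msx2-KO replicates 1 and 2, written KO1 and KO2), homozygous for a germline allele in which a neomycin cassette before exon 2 disrupts the homeobox gene Msx2. Per the methods of the study, C57BL/6J mice were the wild-type controls. The labels give WT a batch of its own and put KO1 and KO2 together in a second, and therefore batch and genotype cannot be told apart. No test between genotypes was possible with 1 WT library, and the labels do not say how many mice went into a library.

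Wnt ligands act by bringing together a Frizzled receptor and the coreceptor LRP5 or LRP6, which stabilises beta-catenin and turns on TCF/LEF target genes. SFRP1, SFRP2 and WIF1 bind the Wnt ligand itself outside the cell. DKK1, DKK2 and SOSTDC1 bind the LRP5 and LRP6 coreceptors, and KREMEN1 binds DKK proteins and helps to remove LRP6 from the surface, whereas DKK3 is a divergent member of its family. In the hair follicle, Wnt activity drives the move from telogen into anagen, and several of these inhibitors are known from the quiescent bulge.

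A total of 4 promoters and 5 region windows are printed. The promoters are those of the members in the RefSeq table, and the regions were chosen by their tags or −log10 q. The promoters run from 250 bases before to 50 after the RefSeq start site, on the strand of the gene, in build GRCm38.p6, with every CG in capitals. The RefSeq table held 4 of the 8 members. Dkk1 (chr19:30549447-30549746, 9 CG), Dkk2 (chr3:132085042-132085341, 11 CG) and Sfrp2 (chr3:83766071-83766370, 22 CG) had no peak at their start site in any library, whereas Wif1 (chr10:121033754-121034053, 25 CG) had one in all 3.
Dkk1: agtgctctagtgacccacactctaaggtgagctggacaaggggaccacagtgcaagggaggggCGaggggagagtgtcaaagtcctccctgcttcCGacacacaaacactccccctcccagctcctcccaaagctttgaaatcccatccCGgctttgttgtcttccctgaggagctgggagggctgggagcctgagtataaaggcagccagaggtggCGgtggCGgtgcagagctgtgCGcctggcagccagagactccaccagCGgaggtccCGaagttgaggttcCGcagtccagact
Dkk2: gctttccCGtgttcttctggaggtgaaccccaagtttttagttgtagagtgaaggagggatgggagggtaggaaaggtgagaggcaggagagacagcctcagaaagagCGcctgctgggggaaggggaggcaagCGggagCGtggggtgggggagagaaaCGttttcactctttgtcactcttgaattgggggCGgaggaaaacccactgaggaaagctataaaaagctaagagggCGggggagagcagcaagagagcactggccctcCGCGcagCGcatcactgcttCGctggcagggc
Sfrp2: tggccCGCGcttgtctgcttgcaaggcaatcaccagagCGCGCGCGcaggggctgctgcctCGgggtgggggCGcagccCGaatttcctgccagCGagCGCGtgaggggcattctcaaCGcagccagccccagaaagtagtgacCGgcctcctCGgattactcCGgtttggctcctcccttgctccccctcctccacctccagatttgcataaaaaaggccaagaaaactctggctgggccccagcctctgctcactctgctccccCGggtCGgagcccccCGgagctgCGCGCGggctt
Wif1: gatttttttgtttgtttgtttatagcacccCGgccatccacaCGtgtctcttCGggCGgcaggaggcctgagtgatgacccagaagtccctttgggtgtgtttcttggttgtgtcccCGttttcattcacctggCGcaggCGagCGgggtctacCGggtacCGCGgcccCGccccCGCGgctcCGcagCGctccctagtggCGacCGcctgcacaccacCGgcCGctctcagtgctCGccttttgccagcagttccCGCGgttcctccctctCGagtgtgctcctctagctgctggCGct

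The region windows reach 100 bases to either side of the strongest summit, on the strand of the gene, with matches to the 13 short motifs searched in capitals. The first 3 are regions of all 3 libraries that held the most tags over the background at their gene. The regions so chosen at Kremen1 and Wif1 are promoters and are not printed from the genome. The 3 are Sostdc1 −11557 (chr12:36302482-36302682), Dkk3 +14619 (chr7:112144338-112144538) and Sfrp1 +31820 (chr8:23443222-23443422), each named by the distance of its summit from the start site, negative upstream. Dkk3 +20336 (chr7:112138621-112138821) was called in both KO libraries and not in WT. Kremen1 −1757 (chr11:5263215-5263415) was called in WT alone, with the largest −log10 q of that kind.
Sostdc1 −11557: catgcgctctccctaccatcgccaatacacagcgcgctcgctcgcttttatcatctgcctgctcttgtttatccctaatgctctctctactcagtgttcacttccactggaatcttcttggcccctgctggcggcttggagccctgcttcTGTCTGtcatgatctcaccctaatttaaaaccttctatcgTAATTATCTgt
Dkk3 +14619: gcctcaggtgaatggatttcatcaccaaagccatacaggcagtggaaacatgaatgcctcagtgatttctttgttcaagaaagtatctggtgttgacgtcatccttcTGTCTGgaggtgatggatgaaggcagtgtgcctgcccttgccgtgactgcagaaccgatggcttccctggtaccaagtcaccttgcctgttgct
Sfrp1 +31820: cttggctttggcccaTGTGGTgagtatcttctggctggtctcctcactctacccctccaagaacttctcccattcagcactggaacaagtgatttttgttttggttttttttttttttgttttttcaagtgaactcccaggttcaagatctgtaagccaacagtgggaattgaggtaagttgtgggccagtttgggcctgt
Dkk3 +20336: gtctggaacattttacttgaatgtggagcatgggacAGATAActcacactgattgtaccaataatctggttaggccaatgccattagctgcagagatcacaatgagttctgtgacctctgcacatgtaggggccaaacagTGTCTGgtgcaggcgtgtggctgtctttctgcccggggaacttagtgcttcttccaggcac
Kremen1 −1757: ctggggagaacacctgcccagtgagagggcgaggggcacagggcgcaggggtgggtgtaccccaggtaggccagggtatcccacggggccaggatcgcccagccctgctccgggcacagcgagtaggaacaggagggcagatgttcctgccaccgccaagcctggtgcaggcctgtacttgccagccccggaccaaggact

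The lists differed in depth and in signal over the background, which sets what each could show. The commonest background was 1.74 tags in WT, 0.476 in KO1 and 0.790 in KO2, a depth 3.65, 1 and 1.66 times that of the shallowest library. The lists held 33654, 19450 and 41091 summits past a q-value of 0.01, and the fewest tags that passed were 9, 5 and 6. At 13077 regions found in all 3 libraries the median summit lay 13.2, 23.1 and 30.4 times above the background in the same order. By promoter peaks, 10, 8 and 11 of 12 HFSC and basal keratinocyte markers were open in WT, KO1 and KO2. Of the markers of other cells, none of 5 leukocyte genes had a promoter peak in any library. Endothelial genes had 0, 0 and 1 of 4, melanocyte genes 3, 2 and 3 of 5, and fibroblast or dermal papilla genes 2, 0 and 2 of 6. The fibroblast genes Pdgfra and Col1a1 had one in WT and KO2, while Col3a1, Dcn, Lum and Twist2 had none. Upper epidermis genes had 2, 0 and 0 of 4, and those 2 were Krt10 and Ly6a, which encodes the Sca-1 protein that the sort selects against. The part of other cells in the values of the Wnt inhibitors was not tested, and in sorted bulk samples fewer open cells and less opening per cell cannot be told apart.

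Peaks stood at 7 of the 8 genes, and Dkk1 was the one without any. All 7 had a peak in KO2, where 25.0% of all genes had none, and Sfrp2 and Dkk2 had theirs in KO2 only. The windows held 21 summits in WT, 12 in KO1 and 22 in KO2. A peak can hold several summits, and these lay in 17, 12 and 22 peaks, so only WT had more summits than peaks. The median gene had 2.5, 1 and 2.5 summits in these libraries, compared with 2, 1 and 2 over all protein-coding genes. Per 10 kb of window this was 0.324, 0.185 and 0.339 summits, above the 0.240, 0.135 and 0.265 of all genes. The median window was 80.6 kb for the 8 genes and 57.4 kb for all genes. Numbers of summits, and the ranks of single genes by them, are not corrected for this length. The order of the libraries was that of all genes, lowest in KO1, so the total does not set the genotypes apart. Lists of equal length gave 10, 12 and 10 summits, and tags scaled to the shallowest background 4, 12 and 13. The cause of these shifts was not tested.

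A promoter peak, a summit within 1500 bases of a start site, was found at 5 of the 8 genes in WT, 4 in KO1 and 5 in KO2. Over all genes the shares were 47.1%, 37.9% and 53.7%. Sfrp1, Dkk3, Kremen1 and Wif1 had one in all 3 libraries, which was the case for 35.2% of all genes. Sfrp2, Dkk1 and Dkk2 had none, as had 43.8% of all genes. Sostdc1 had one in WT and KO2 only. None of the 8 had a promoter peak in both KO libraries without one in WT, against 2.32% of all genes. None had one in WT alone, against 2.11%. Both shares correspond to less than 1 gene in 8. With tags scaled to the shallowest background, promoter peaks were left at 1 gene in WT, Kremen1, and at 4 in each KO library.

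**Figure D1:**
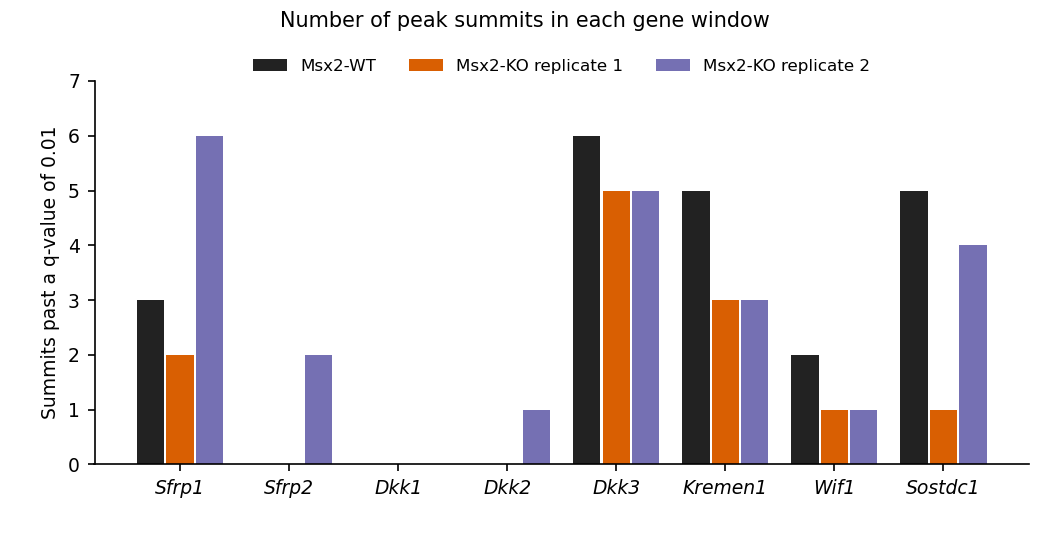
Number of peak summits past a q-value of 0.01 (vertical axis) in the window of each gene (horizontal axis), with 1 bar per library and no error bar, since each bar is 1 library. Dkk3 held 5 or 6 summits in every library, Dkk1 held none, and KO1 had the lowest or joint lowest bar at every gene.

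Of the 25 regions, 11 were found in all 3 libraries, 7 in KO2 alone, 3 in WT alone, 3 in WT and KO2, and 1 in both KO libraries. The 44% found in all 3 libraries stood beside 27.6% of all regions, and 5 of the 8 windows held at least 1 such region, as did 55.3% of all gene windows. The 3 of WT alone were 12%, beside 18.7%, and the 1 of both KO libraries was 4%, beside 7.66%. Without KO1, 8 regions were in KO and not in WT, and without KO2, 6 were in WT and not in KO. By position, 11 summits lay in introns, 10 upstream, 3 downstream and 1 in a coding exon, and 5 of the 25 were the gene's own promoter. No region was the promoter of another gene, although the windows reached into Usp47 beside Dkk3, Znrf3 beside Kremen1 and Prkg1 beside Dkk1.

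**Figure D2:**
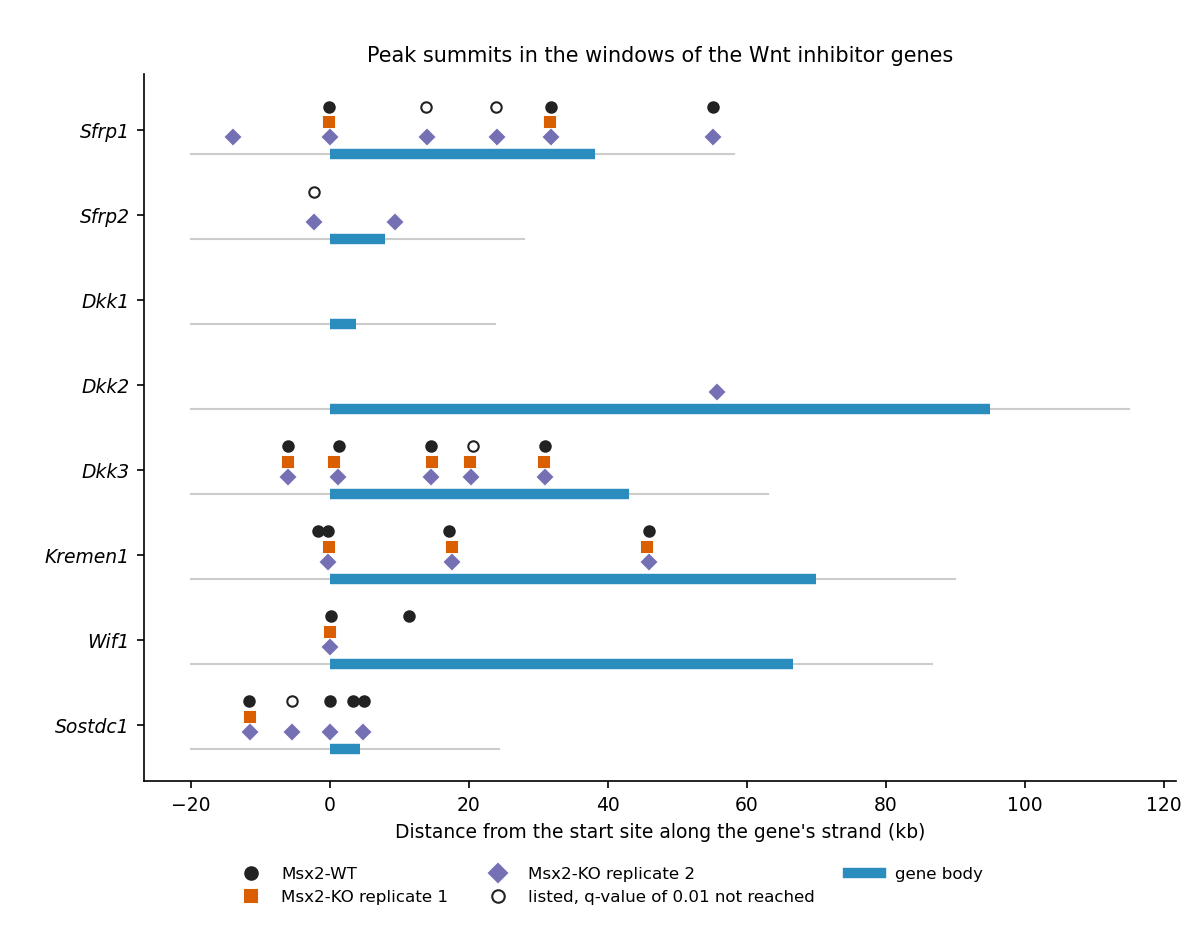
Position of the strongest summit of each region by library, in kb from the start site along the gene's strand (horizontal axis), with 1 track per gene. Filled symbols passed a q-value of 0.01, open circles are WT peaks listed without reaching it, blue bars are gene bodies and thin lines the windows of 20 kb on either side. Of the 25 regions, 11 carry all 3 filled symbols, and 5 carry an open circle.

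The ligand binders differed widely from each other in how much open chromatin surrounded them. Sfrp1 (ENSMUSG00000031548.7, chr8:23411502-23449632, plus strand) had 3 summits in WT, 2 in KO1 and 6 in KO2. That placed it above 66.0%, 68.6% and 91.3% of all genes. Its promoter region, at −44, held 16, 9 and 33 tags.

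Tag numbers were compared after division by the background of the library and by the median of that value over the shared regions, so that 1 is the typical shared region. On this scale the Sfrp1 promoter stood at 0.696 in WT, 0.818 in KO1 and 1.38 in KO2. The log2 difference was −0.23 between WT and KO1, −0.98 between WT and KO2 and −0.75 between KO1 and KO2, and all 3 counting intervals overlapped. A region counted as different only where WT lay at least 2-fold above or below both KO libraries, and the Sfrp1 promoter did not.

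The intron 2 region of Sfrp1 at +31820 (chr8:23442522-23444001) did pass that limit. It held 13 tags in WT, 16 in KO1 and 34 in KO2, although WT was the deepest library. Relative to the typical shared region the levels were 0.565, 1.45 and 1.42, with 95% Poisson intervals of 0.301 to 0.967, 0.831 to 2.36 and 0.981 to 1.98. The log2 difference was −1.36 against KO1 and −1.33 against KO2, and 0.04 between KO1 and KO2. The WT interval overlapped that of KO1 and not that of KO2. Intervals here cover counting error only, and tags are not independent molecules because duplicates were kept.

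Other regions of Sfrp1 were seen mainly in KO2. A pair of intron 2 regions, at +13938 and +24108, each held 12 tags there and 9 in WT, where both fell short of the q-value, and neither was listed in KO1. The region at +55102, beyond the gene end, held 18 tags in WT and 18 in KO2. At the same relative level KO1 would hold 8.61 tags, but no peak was listed there. The local background was 4.92 tags in WT and 3.05 in KO2, above the commonest of each library. The lowest passing number of 5 in KO1 therefore need not apply at this site. The last, at −13951, was listed in KO2 alone with 10 tags.

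Sfrp2 (ENSMUSG00000027996.13, chr3:83766321-83774316, plus strand), which encodes a close relative of SFRP1, had 0, 0 and 2 summits. The region at −2220, outside the promoter window, held 14 tags in KO2 and 8 in WT, where it fell short of the q-value. The region at +9349, past the gene end and inside the antisense gene Gm26771, held 7 tags in KO2. ATAC-seq reads carry no strand, so the latter cannot be given to either gene. Sfrp2 thus passed in the library with the most summits only, with nothing at its start site.

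Wif1 (ENSMUSG00000020218.11, chr10:121033960-121100650, plus strand) had 2, 1 and 1 summits. Its promoter region at −32 held 11 tags in WT, 6 in KO1 and 11 in KO2. The relative levels of 0.478, 0.545 and 0.458 were close together, with each inside the counting intervals of the other libraries, and all lay below the typical shared region. An intron 2 region at +11349 was seen in WT alone with 11 tags, and all bases within 100 of its summit are repeat-masked.

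Among the genes whose products act on the coreceptor, Dkk1 and Dkk2 had the fewest summits past the q-value. Dkk1 (ENSMUSG00000024868.8, chr19:30545863-30549665, minus strand) had no summit past the q-value in any library. Its window held 3, 1 and 3 listed summits under the limit. Dkk2 (ENSMUSG00000028031.6, chr3:132085292-132180304, plus strand) had 0, 0 and 1 summits in a window of 135 kb, the longest of the 8. The lists held 7, 1 and 8 summits there when those under the limit were counted too, and with them Dkk2 had a promoter peak in WT and KO2. The single one, in intron 1 at +55744, held 6 tags in KO2, the fewest that could pass there. No peak past the q-value at these genes is a statement about detection at this depth, not about closed chromatin.

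Dkk3 (ENSMUSG00000030772.6, chr7:112116017-112159057, minus strand) had 6, 5 and 5 summits, in 4, 5 and 5 peaks. It exceeded 92.1%, 97.0% and 86.0% of all genes in the 3 libraries. Lists of equal length left it 2, 5 and 2 summits, and tags scaled to the shallowest background 1, 5 and 3, with a promoter peak in KO1 alone in both cases. Of its 5 regions, 4 were found in all 3 libraries. The strongest, in intron 4 at +14619, held 23 tags in WT, 10 in KO1 and 44 in KO2. Relative levels were 1.00, 0.909 and 1.83, and all 3 counting intervals overlapped.

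The same intron held a region at +30967 with 11, 11 and 13 tags. The relative level was 0.478 in WT (0.239 to 0.856), 1.00 in KO1 (0.499 to 1.79) and 0.542 in KO2 (0.288 to 0.926), and the intervals of all 3 overlapped. The log2 difference was −1.06 between WT and KO1 and −0.18 between WT and KO2. The region counted as the promoter of Dkk3 had its strongest summit at +1249, in intron 2, with 10, 6 and 9 tags, which is inside the promoter window but not at the start site. The upstream region at −5994 held 17, 6 and 17 tags. Neither of these regions separated the genotypes.

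Dkk3 also held the single region of the 8 genes that was called in both KO libraries and not in WT, in intron 4 at +20336 (chr7:112138285-112139206). Of all gene windows, 11.7% had at least 1 such region. It held 7 tags in KO1 and 9 in KO2, with −log10 q of 2.15 and 3.09, near the limit of 2. In WT a peak with 5 tags was listed there with a −log10 q of 0.0358. The summits of the KO libraries, at 112138960 and 112138721, were more than 100 bases apart. The region was therefore lost when peaks were matched by summits within 100 bases.

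Sostdc1 (ENSMUSG00000036169.6, chr12:36314139-36318452, plus strand), also known as Wise or ectodin, encodes an inhibitor of BMP as well as of Wnt signals. It had 5 summits in WT, 1 in KO1 and 4 in KO2, and so lay above 87.0%, 39.4% and 77.1% of all genes. The summits lay in 4, 1 and 4 peaks. With a window of 44.3 kb its density of 1.13 summits per 10 kb in WT was the highest of the 8. The KO libraries were farther apart in number than WT was from KO2.

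The upstream region of Sostdc1 at −11557 (chr12:36302017-36303377) held more tags than any other of the 25 in both KO libraries. It held 30 tags in WT (95% Poisson interval 20.2 to 42.8), 35 in KO1 (24.4 to 48.7) and 70 in KO2 (54.6 to 88.4). The −log10 q was 16.9, 21.2 and 49.2. Relative levels were 1.30, 3.18 and 2.92, with intervals of 0.880 to 1.86, 2.22 to 4.43 and 2.27 to 3.69. The WT interval overlapped neither of the others. The log2 difference was −1.29 against KO1, −1.16 against KO2 and 0.13 between KO1 and KO2.

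The promoter of Sostdc1, at −16, did not follow that pattern. It held 21 tags in WT and 18 in KO2, relative levels of 0.913 and 0.75, and was not listed in KO1, which would hold 10.0 tags at the level of WT. The local background was 3.18 tags in WT and 3.46 in KO2, above the commonest of each library. A region just past the gene end, at +4880, had the same distribution, with 15 tags in WT and 14 in KO2. Exon 2, which is coding there, held a region at +3259 with 13 tags in WT alone. The region at −5499 held 9 tags in KO2 and 8 in WT, where it fell short of the q-value.

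Kremen1 (ENSMUSG00000020393.16, chr11:5191552-5261558, minus strand), the DKK receptor, had 5, 3 and 3 summits, in 4, 3 and 3 peaks, and 4 regions. Its promoter region at −225 held 41 tags in WT, 14 in KO1 and 34 in KO2, relative levels of 1.78, 1.27 and 1.42. It was the strongest of the 25 in WT, and all 3 counting intervals overlapped. The regions at +17526 in intron 1 and +45867 in intron 3 held 14, 8 and 16 tags and 15, 7 and 10 tags, and all 6 relative levels were below 1.

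The region of Kremen1 at −1757 (chr11:5263121-5263589) was the strongest of the 3 found in WT alone. Of all gene windows, 29.2% had at least 1 region of this kind, compared with 3 of the 8 here (Kremen1, Wif1 and Sostdc1). It held 35 tags with an interval of 24.4 to 48.7, a deposited fold of 5.37 over the local background and a −log10 q of 13.5. At the same relative level 16.7 tags would stand in KO1 and 36.5 in KO2, and no peak was listed there in either. The local background was 5.71 tags in WT, above its commonest of 1.74. The lowest passing numbers of 5 in KO1 and 6 in KO2 therefore need not apply at this site. Its printed window is 68.2% G+C and holds no repeat-masked base.

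Over the 11 regions found in all 3 libraries, the Wnt inhibitors had medians near those of all shared regions. The median log2 difference was −0.23 between WT and KO1 (SD 0.65 over regions) and −0.13 between WT and KO2 (SD 0.67), beside −0.17 (SD 0.75) and −0.01 (SD 0.71) over the 13077 shared regions. Between the replicates it was 0.13 (SD 0.57), beside 0.15 (SD 0.51). At least 2-fold lower levels in WT than in both KO libraries were found at 2 of the 11, Sostdc1 −11557 and Sfrp1 +31820, and at 4.85% of all shared regions. The opposite was found at 0 of the 11 and at 3.25% of all. Both differences depend on the scale. With the deposited fold over the local background, divided by its median in the same way, the log2 differences were −0.33 and −0.35 at Sostdc1 and −0.54 and −0.43 at Sfrp1, and 0 of the 11 and 0.367% of all shared regions were at least 2-fold lower.

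**Figure D3:**
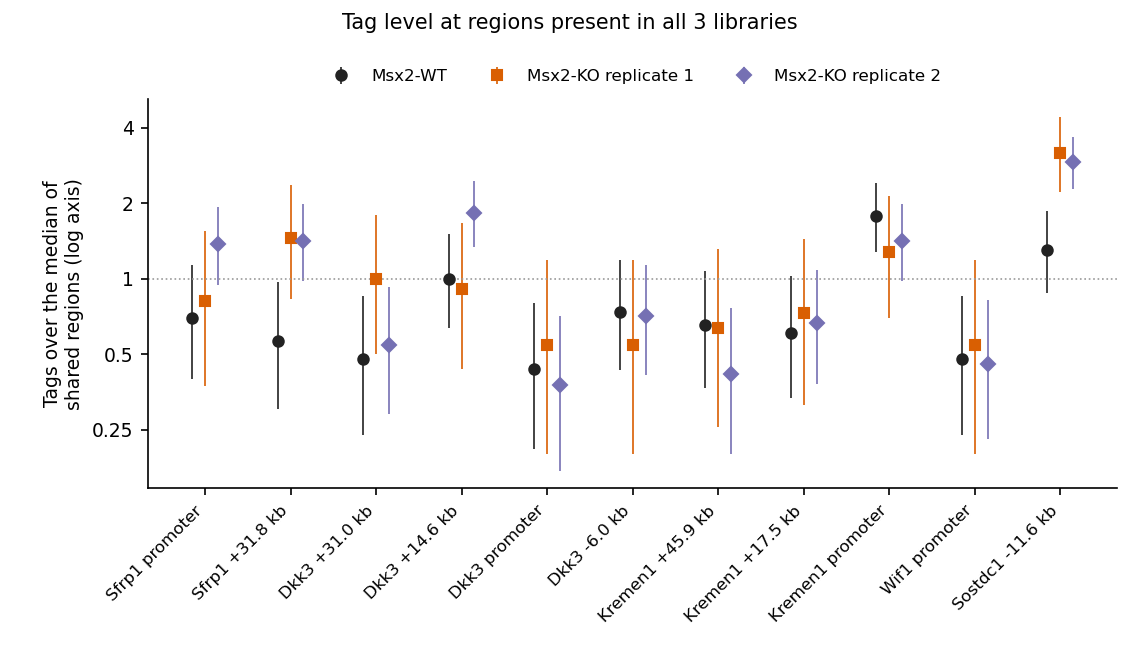
Tags over the library's background, divided by the median over all shared regions (vertical log axis, where 1 is the typical shared region), for the 11 regions of the Wnt inhibitors found in all 3 libraries (horizontal axis). Points are single libraries and lines are 95% Poisson intervals of the tag number. At the upstream region of Sostdc1 the WT point stands at 1.30 and the KO points at 3.18 and 2.92, while at the Wif1 promoter the 3 points lie between 0.458 and 0.545.

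The summits of shared regions stood close together between libraries. The median distance was 78 bases between WT and KO1, 70 between WT and KO2, and 85 between KO1 and KO2. Within 100 bases were 6, 9 and 8 of the 11 pairs. The median distance was thus longest between the libraries of the same genotype.

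The promoters differed in their CpG content, the count of CG steps over the number that their C and G content would give. Within 500 bases of the start site this ratio was 1.04 at Sfrp1, 0.888 at Kremen1, 0.788 at Sfrp2 and 0.683 at Wif1. It was 0.479 at Dkk2, 0.445 at Dkk1, 0.425 at Dkk3 and 0.216 at Sostdc1. Over all genes the median was 0.756 where the promoter had a peak in all 3 libraries and 0.218 where it had none. Sfrp2, whose promoter printed above has 22 CG, had no peak despite a ratio above the median of the open promoters. Sostdc1 had a peak in 2 libraries with a ratio below the 0.687 of that class, and the summit of Dkk3 counted as its promoter lay away from its start site.

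**Figure D4:**
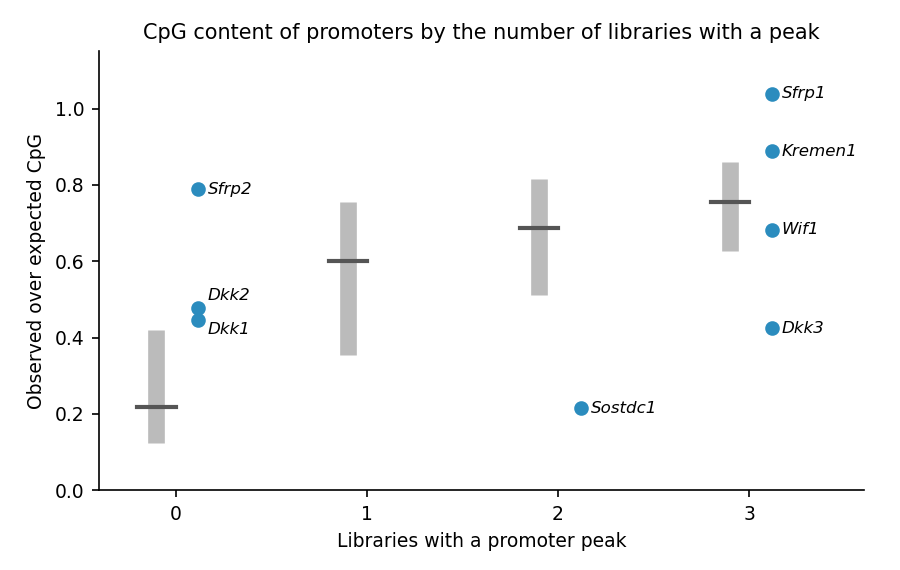
Observed over expected CpG within 500 bases of the start site (vertical axis) by the number of libraries with a promoter peak (horizontal axis). Grey bars span the middle quartiles and dark lines the median of all genes in each class, from 0.218 for no library to 0.756 for all 3, and points are the 8 genes, with Sfrp2 at 0.788 in the class without a peak and Sostdc1 at 0.216 in the class of 2 libraries.

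Short motifs were searched on both strands within 100 bases of each summit, as a description that names no bound factor. The SMAD motif CAGACA was in 8 of the 25 regions (32%) and in 18.6% of all regions. It stands in the printed windows of Sostdc1 −11557, Dkk3 +14619 and Dkk3 +20336, at bases 151, 108 and 141 from the 5′ end, each time as its reverse complement TGTCTG. The RUNX motif TGTGGT was in 4 regions (16%, beside 13.1%), among them Sfrp1 +31820 at base 16, and AP-1 TGANTCA in 4 (16%, beside 12.1%). The LIM homeobox motif TAATTA was in 1, Sostdc1 −11557 at base 191, where it overlaps a GATA match (AGATAA, 2 regions or 8%, beside 9.37%) at base 194.

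The remaining motifs were found in few regions of the Wnt inhibitors. The TCF/LEF motif ATCAAAG, through which Wnt targets are read, was in 1 region, Sostdc1 −5499 (4%, beside 2.66% of all regions). The motif used for MSX, TAATTG, was in 0 of the 25, beside 7.26%. SOX ACAATGG and ETS CCGGAAG were in 0, beside 3.16% and 4.18%. FOX TGTTTAC was in 2 (8%, beside 2.78%), TEAD ACATTCC in 1 (4%, beside 4.00%), NFI TTGGCA in 5 (20%, beside 18.5%) and SP/KLF GGGCGG in 4 (16%, beside 20.4%). No match says only that these letters are not in the window. The median G+C of the 25 windows was 49.8%, beside 50.7%.

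Other genes of the pathway were read from lists in the same way. Their counts stand beside the shares of all genes with a promoter peak, 47.1%, 37.9% and 53.7%. Of 18 other secreted or surface Wnt inhibitors, 7, 6 and 9 had a promoter peak in WT, KO1 and KO2, 6 had one in all 3 and none differed between WT and both KO libraries. Of 16 receptors and coreceptors, 12, 11 and 14 had one. Lrp4, a relative of LRP5 and LRP6 that binds SOSTDC1, had one in both KO libraries and not in WT, and the Frizzled gene Fzd10 in WT alone. Of 12 target genes, 6, 3 and 10 had one, and Lgr5, which encodes an R-spondin receptor of HFSCs, had one in both KO libraries and not in WT. Over all genes the shares were 2.32% for both KO libraries without WT and 2.11% for WT alone, so nothing is read from 1 gene of 16 or 1 of 12.

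By the number of summits in the 3 libraries, some of these 18 genes came close to each of the 8. Likeness was the summed difference in number over the 3 libraries, with 0 as identity. Tpbg (4, 2 and 6) was closest to Sfrp1 at a difference of 1, and Znrf3 (6, 4 and 6) to Dkk3 at 2. Bambi (1, 1 and 1) was closest to Wif1 at 1. Sost, Sfrp5, Dkkl1 and Dkk4 had no summit, as Dkk1. Frzb, Cer1 and Shisa3 had 0, 0 and 1, as Dkk2, and the same genes were also closest to Sfrp2 at 1. Kremen1 had Igfbp4 (7, 2 and 3) and Apcdd1 (3, 2 and 3) at 3, and Sostdc1 had Kremen2 (3, 2 and 4) and Draxin (2, 1 and 4) at 3.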

How the data were processed

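Omni-ATAC-seq was measured in 3 libraries of sorted HFSCs, 1 Msx2-WT and 2 Msx2-KO, grouped by the labels. In both KO lists the names of the peaks hold the letters cKO, and in that of replicate 1 also another library number than its label. The labels were followed. By the methods of the study, Trimmomatic was used for trimming, BWA-MEM for alignment to GRCm38 and MACS2 (version not given in the sources used here) for peaks, which the authors called per library with duplicates kept. The submitters' processing notes also name Partek.

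Each line of a list is 1 summit. The authors deposited a fold enrichment over the local background, a −log10 p-value and a −log10 q-value of the MACS2 Poisson test, and a score, which was not used. The lists stop at a p-value of 0.01, so summits with a −log10 q above 2 were kept. The methods name the removal of mitochondrial reads, whereas the lists held 10, 14 and 4 mitochondrial summits in Msx2-WT and Msx2-KO replicates 1 and 2, and these were left out here.

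The whole tag number at each summit was solved from the fold and −log10 p (tolerance 0.001), and was found for 99.9%, 99.9% and 99.94% of summits. The commonest background stood for the depth of a library. The relative levels and the setting scaled to the shallowest background rest on this estimate. Tag numbers and shares of called peaks vary with the depth of the library itself. Recovery and merging were tested on simulated data. Peaks sharing at least 1 base were merged into regions. Genes, introns and the start sites used for promoter peaks came from the basic GENCODE M21 annotation of GRCm38. Only the 4 printed promoter sequences came from RefSeq.

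All 8 genes are described with every region of their windows. From the lists, the genes with the closest numbers of summits and those with another promoter state in WT than in both KO libraries are named. The genes, lists and motifs were chosen with earlier results of these data known. The alternatives tried were a minimum −log10 q of 5, every deposited peak, lists of equal length, tags scaled to the shallowest background, windows of 10 kb or the gene body, promoters of 500 and 3000 bases, summits within 100 bases, 50% reciprocal overlap and leaving out each KO library. The deposited fold as a level, and leaving out a library from the 2-fold calls, were added after the data were seen. No p-value was computed. The tools were pysam 0.24.0, matplotlib 3.10.9, scipy 1.17.1, pandas 2.3.3 and numpy 2.4.6 under Python 3.11.15.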

Additional observations from a re-analysis of the deposited data

How the results depend on the processing

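Values in this part follow the order Msx2-WT, Msx2-KO replicate 1 and Msx2-KO replicate 2, and start from 21, 12 and 22 summits and promoter peaks at 5, 4 and 5 of the 8 genes. With a −log10 q of at least 5 there were 10, 5 and 13 summits, promoter peaks at 3, 1 and 4 genes, and 1 region of Msx2-WT alone in place of 3. Over all regions, those of Msx2-WT alone fell from 8905 to 4862. With every deposited peak there were 49, 21 and 48 summits and 20 regions of Msx2-WT alone, while those over all regions rose from 8905 to 63942. Lists of equal length gave 10, 12 and 10 summits and promoter peaks at 3, 4 and 3 genes. With tags scaled to the shallowest background, Msx2-WT kept 4 summits and 1 promoter peak, that of Kremen1, compared with 12 and 13 summits in the Msx2-KO libraries. Regions of both Msx2-KO libraries rose from 1 to 7 while 1 of Msx2-WT alone was left. Over all regions, the first kind rose from 3644 to 7442 and the second fell from 8905 to 1292. The gene body with 1500 bases before it held 13, 10 and 14 summits. Matching by summits within 100 bases gave 0 regions of both Msx2-KO libraries and 7 of Msx2-WT alone, beside 3358 and 15929 over all regions. For 50% reciprocal overlap there were 2 and 5, beside 4362 and 14115. Leaving out 1 Msx2-KO library gave 1 to 8 regions of Msx2-KO without Msx2-WT (8 without replicate 1) and 3 to 6 of Msx2-WT alone (6 without replicate 2). The 8 are regions of replicate 2 alone and of both Msx2-KO libraries, which numbered 13340 and 3644 among all 47562 regions. The 6 are regions of Msx2-WT alone and of Msx2-WT with replicate 2, which numbered 8905 and 6868. Regions at least 2-fold lower in Msx2-WT then numbered 2 to 3, beside 7.33% (without replicate 1) and 12.2% (without replicate 2) of all shared regions. With the deposited fold as the level this last count was 0 in place of 2. The cause was not tested in any of these cases. Of all recomputed values, 28 moved by over 1.5 times and 34 did not. No paired analysis was possible with a single Msx2-WT library, and no test was run.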
